A study of Mus musculus with 4 samples.

Results

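The lung and the esophagus primordium of the mouse embryo were compared gene by gene at embryonic day E11.5, with 1 array for each organ, which are 2 of the 4 arrays of the series. Genes were kept when at least 1 probe was well above background on at least 1 of these 2 arrays, when the brightest probe stood at least 2-fold apart, and when all bright probes of the gene pointed the same way. Of 13309 genes bright on at least 1 of the arrays, 10516 could be put in an order, and 2107 of these (20%) met the rule: 1285 were higher in lung (12.2%) and 822 were higher in esophagus (7.82%).

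Both organs came from ICR embryos, an outbred laboratory stock, with the day of the vaginal plug counted as the start, and the stomach and intestine primordia on the remaining arrays came from the same kind of embryo. No mutation, transgene or treatment is named for any of them. Total RNA was amplified and labelled with Cy3 by a low-input kit and hybridised in 1 colour to Agilent arrays. The labels do not say how many embryos were pooled or what sex they were, and the extraction text given for all 4 samples speaks of stomach, so the organ was taken from the title and tissue labels. No organ was measured more than once. Every value below therefore describes 1 sample, no p-value could be given, and a 2-fold difference is a statement of size only.

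Lung and esophagus form from the same stretch of foregut endoderm, the lung budding from its ventral side and the esophagus forming from the dorsal side once the tubes separate. Ventral mesoderm sends Wnt2, Wnt2b and BMP signals that turn on Nkx2-1, the transcription factor of the respiratory lineage, while dorsal endoderm keeps Sox2 and is shielded from BMP by the secreted inhibitor Noggin. The esophageal lining later becomes a stratified epithelium that depends on Trp63, and the lung bud goes on to branch under FGF10 from its mesenchyme.

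The lung array was dim. Only 39.0% of its spots cleared the background, where the esophagus array had 69.3% and the stomach and intestine arrays 67.9% and 74.0%. The signal at the 75th percentile was 32 in lung and 379 in esophagus. Spike-in control RNA was 20.4-fold brighter on the esophagus array, and the lowest level well above background was −2.39 in lung against −5.75 in esophagus. Levels here are log2 signals relative to the 75th percentile of the same array, so that a level of 0 is that percentile. Copies of a probe on an array varied by an SD of 0.11 in lung and 0.09 in esophagus, which leaves out every difference of dissection, RNA and labelling. A fold is that of the gene's brightest probe unless stated otherwise. Where the lower array was not well above background, the fold is a lower bound and is written "at least".

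The plot of levels on the lung array against the esophagus array shows where these genes lay and how the lung array's floor limits what could be seen at low levels.

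**Figure D1:**
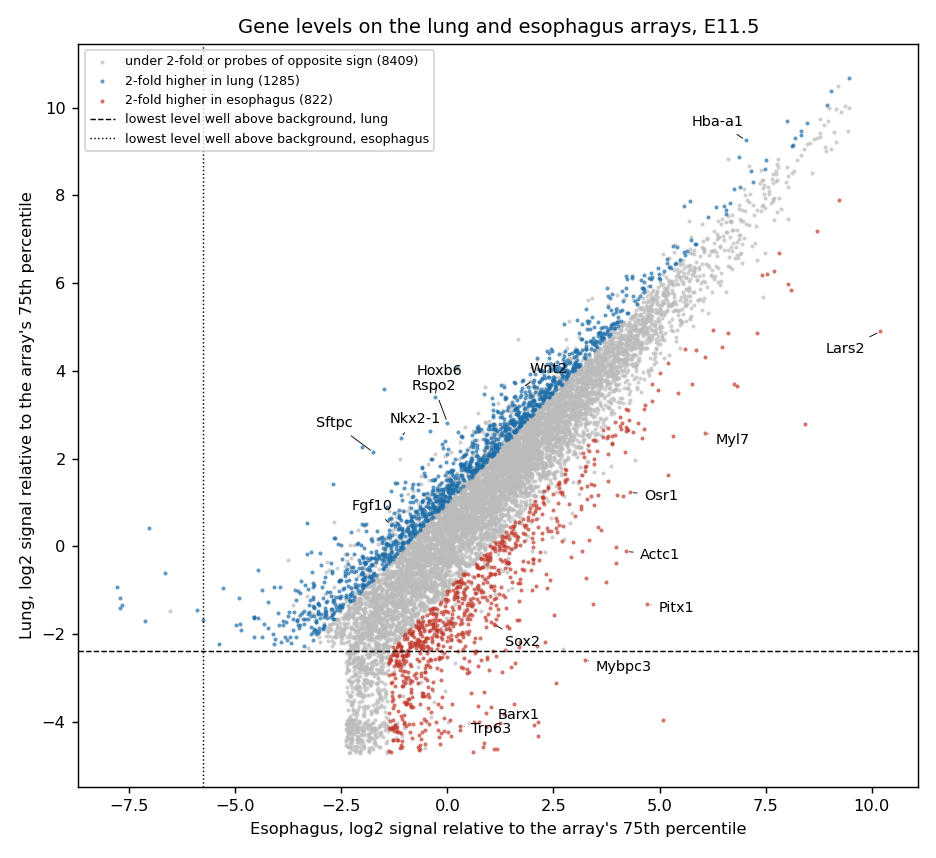
Each point is 1 gene that could be put in an order, with its log2 level on the esophagus array (x axis) and on the lung array (y axis); blue points are the 1285 genes at least 2-fold higher in lung, red points the 822 higher in esophagus, and the dashed and dotted lines mark the lowest level well above background on each array. Many red points lie under the lung array's floor of −2.39, where only a bound on the fold is known, while few blue points lie beyond the esophagus array's floor of −5.75.

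Nkx2-1 and surfactant genes were among the largest differences toward lung. Nkx2-1, the lineage's first transcription factor, stood at 2.47 in lung and −1.10 in esophagus, and did not clear the background on the stomach (−7.74) and intestine (−8.94) arrays. Lung was 11.9-fold above esophagus for Nkx2-1, and the scanner's own error of that log2 difference was 0.06. Sftpc, which encodes surfactant protein C of distal lung epithelium, stood at 2.14 and −1.74 on the lung and esophagus arrays and at −6.72 and −6.86 on those of stomach and intestine, a 14.75-fold difference. Both genes were thus highest in lung, lower but measurable in esophagus, and not well above background in the other gut segments. Sftpa1, the gene of surfactant protein A, followed the same order of arrays, at −0.995 in lung and −4.37 in esophagus (10.3-fold), with stomach and intestine not well above background. Whether the esophagus signal of these genes came from esophageal cells or from neighbouring lung or trachea was not tested.

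The list of respiratory epithelium genes held 30 members, of which 29 were on the array, 28 were bright on 1 of the arrays or more, and 24 could be compared. Of these, 4 were at least 2-fold higher in lung (16.7%) and 1 in esophagus. Among all genes bright on both arrays, as these 24 were, 13.4% were higher in lung, so the share of the list was near that of genes in general. The list's median difference was 0.54 (log2, lung minus esophagus) against 0.29 over all genes compared. Besides Nkx2-1 and Sftpc, the members higher in lung were the tight junction gene Cldn18 (−1.67 in lung, −3.65 in esophagus, 3.96-fold) and Wnt7b, a Wnt ligand of the lung epithelium (0.89 and −0.44, 2.51-fold). The member higher in esophagus was Foxp1, a forkhead repressor, at 1.98 in lung and 3.45 in esophagus. Genes shared by the foregut endoderm stood close together: Foxa2 was at 2.89 in lung and 2.88 in esophagus, Shh at −0.53 and −0.85, and Bmp4 at 1.12 and 0.66. Mycn, Gata6 and Irx2 were 3.20-fold, 2.21-fold and 2.01-fold higher in lung by their brightest probe but another bright probe of each pointed to esophagus, so they were not kept. Sftpb was below background on both arrays, and Ager, Hopx, Irx3 and Napsa gave no order.

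Mesenchymal genes of the lung bud made the larger group. Wnt2, the ventral Wnt ligand, stood at 3.61 and 1.76 on the lung and esophagus arrays and at −2.31 and −4.73 on those of stomach and intestine, 3.60-fold higher in lung. Rspo2, a secreted amplifier of Wnt signalling, stood at 2.82, 0.00, −2.40 and −4.71 on the same arrays, 7.04-fold higher in lung. These genes fell into a common order, lung above esophagus above stomach and intestine. Fgf10, the ligand that drives branching, did not share it: it was at 0.49 and −1.33 on the lung and esophagus arrays and at 0.26 and −1.06 on those of stomach and intestine, so that lung was 3.53-fold above esophagus but close to stomach. The T-box factors Tbx2 and Tbx3, which act in branching mesenchyme, were 2.74-fold and 2.75-fold higher in lung, at 3.11 against 1.65 and at 4.40 against 2.94. Tbx5, a T-box factor of lung, heart and forelimb, was at 3.49 in lung and 2.46 in esophagus by its brightest probe, but its probes ran from −0.17 to 1.03 in log2 difference and it was not kept.

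Of the 18 lung mesenchyme genes 14 could be compared, all of them bright on both arrays, and 7 were at least 2-fold higher in lung against 3 in esophagus (median difference 1.04). These shares were 50% and 21.4%, against 13.4% and 5.2% of all genes bright on both arrays. Bmper, a secreted modulator of BMP (2.07-fold by its brightest probe), and the receptor gene Fgfr4 (2.35-fold) completed the lung side. Those higher in esophagus were Adamts18, a secreted protease (−0.91 in lung, 2.08 in esophagus), the homeobox gene Nkx6-1 (0.33 and 2.58) and Foxf1, a hedgehog target of gut mesenchyme (−2.07 and 0.01). The ventral ligand Wnt2b was at −2.41 in esophagus and not well above background in lung, which leaves it without an order. Under every one of the 6 scalings between arrays that were tried, 5 of the 7 lung calls and all 3 esophagus calls stayed past 2-fold. In whole primordia a lower level can come from fewer cells of a type or from less RNA per cell, and these cannot be told apart.

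Some Hox genes, which mark position along the body axis, differed between the arrays as well. Hoxb6 stood at 3.41 in lung and −0.30 in esophagus (13.04-fold), with 2.42 in stomach and 2.11 in intestine, and Hoxb5 at 3.37 and 1.04 (5.04-fold), with 2.43 and 1.97. For Hoxb5 and Hoxb6 the esophagus stood lowest of the 4 arrays. Hoxb2 was 2.59-fold higher in lung, and Hoxc4 was 5.74-fold higher, at 0.51 against −2.01. The neighbouring cluster members Hoxb3 (1.74 in lung, 1.19 in esophagus), Hoxb4 (−0.49 and 0.30) and Hoxb7 (−1.57 and −1.60) were under 2-fold. In esophagus Hoxa9 was at least 4.76-fold higher and Hoxd4 at least 3.33-fold higher. Both passed through the esophagus array alone and had to differ in that direction. Over the 13 Hox A and B genes compared, 3 were higher in lung (23.1%) and 1 in esophagus (7.69%). Over all genes compared these shares were 12.2% and 7.82%. The median difference of the 13 was 0.37 and ran from −0.22 to 1.24 over the scalings.

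Among FGF pathway genes, 6 of 20 compared were higher in lung (30%) and 2 in esophagus (10%). The median difference was 0.72, and 0.20 to 1.64 over the scalings. Over all genes compared these shares were 12.2% and 7.82%, so the esophagus share was near that of genes in general. The ligands Fgf9, which comes from epithelium and mesothelium, and Fgf10 were 2.48-fold and 3.53-fold higher in lung. Etv4, a transcription factor induced by FGF signalling, stood at 0.06 in lung and −2.14 in esophagus (4.57-fold), with −0.39 in stomach and −0.13 in intestine. Spry1, a feedback inhibitor, was 2.21-fold higher in lung. The esophagus side held Hs3st3b1, a heparan sulfate modifying enzyme (at least 12.9-fold), and Spred1, an inhibitor of the downstream kinase cascade (3.99-fold). Hs3st3b1 was not well above background in lung and could differ only toward esophagus. The receptor genes Fgfr2 (0.07 in lung, 0.77 in esophagus) and Fgfr1 (−0.64 and −0.05) were under 2-fold apart.

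The plot of levels on all 4 arrays sets the leading genes of each organ side by side with stomach and intestine.

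**Figure D2:**
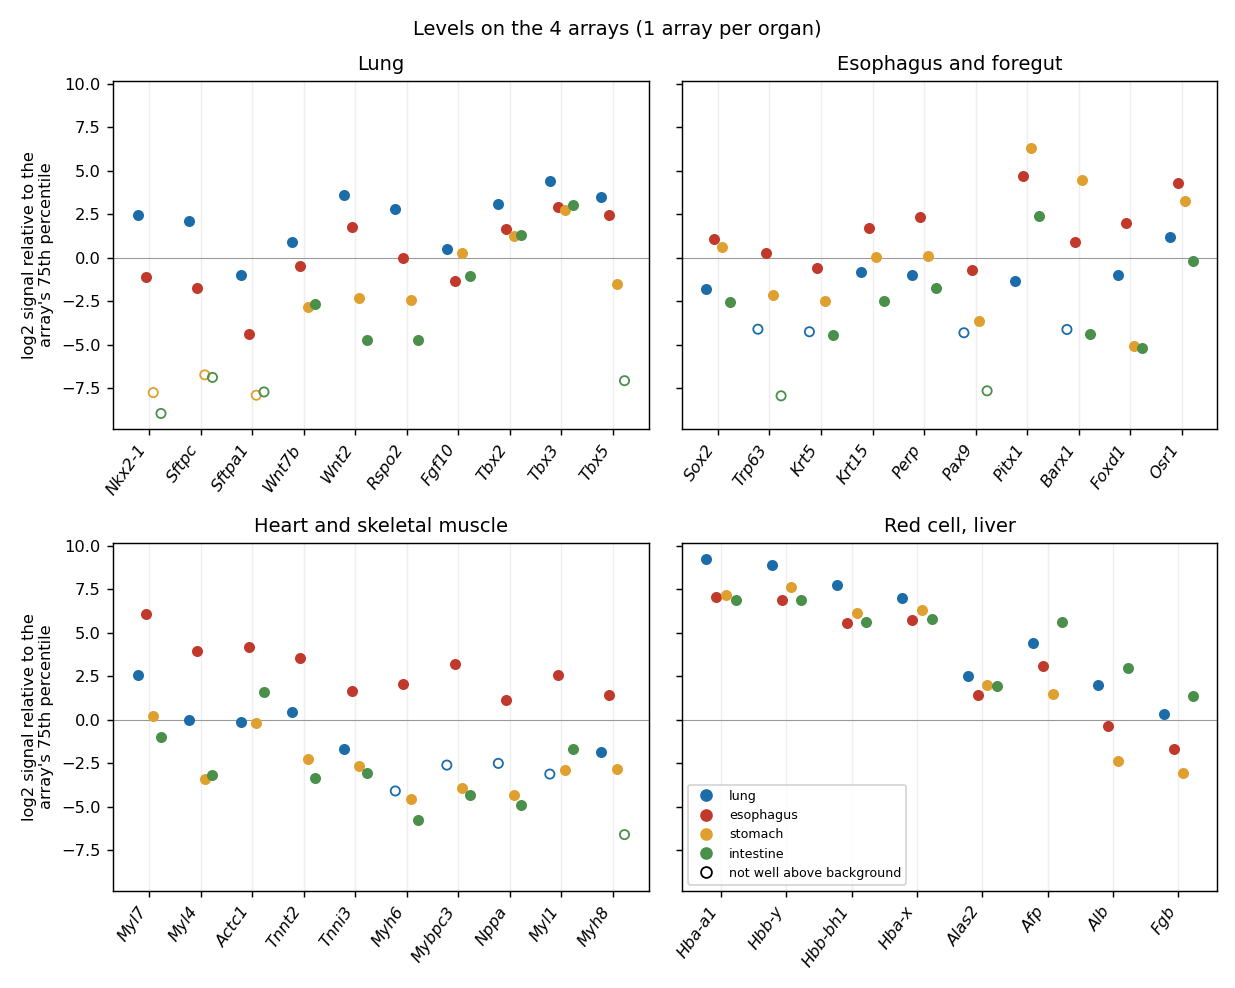
Log2 level (y axis, relative to each array's 75th percentile) of named genes (x axis) on the lung, esophagus, stomach and intestine arrays, 1 point per array; open points were not well above background. Nkx2-1 and Sftpc stood at 2.47 and 2.14 in lung, Sox2 at 1.09 in esophagus and 0.63 in stomach, the heart gene Myl7 at 6.06 in esophagus and 2.58 in lung, and the globin gene Hba-a1 at 9.25 in lung and 7.03 in esophagus. Tbx5 is drawn by its brightest probe although its probes disagreed.

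Transcription factors and keratins of stratified foregut epithelium marked the esophagus array. Sox2, the dorsal foregut factor, stood at −1.77 in lung and 1.09 in esophagus, 7.29-fold higher in esophagus, with 0.63 in stomach and −2.56 in intestine. Trp63, the factor of stratified epithelia, was not well above background in lung and stood at 0.31 in esophagus. It was at least 6.48-fold higher in esophagus by its brightest probe, with no order by its other probe. Sox2 thus ran opposite to Nkx2-1, while Trp63 passed through the esophagus array alone and had to differ in that direction. The basal keratin Krt5 was at −0.59 in esophagus (at least 3.48-fold higher), and Krt15 was at 1.70 in esophagus and −0.83 in lung (5.798-fold). Perp, a desmosomal target of Trp63, was 9.81-fold higher in esophagus, at 2.34 against −0.95. Pax9, a factor of pharyngeal and esophageal endoderm, was at least 3.30-fold higher, and the hemidesmosome gene Itgb4 at least 5.63-fold by its brightest probe.

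In that list 12 of 22 members could be compared, and 11 were higher in esophagus and 0 in lung, with a median difference of −2.62 (from −2.91 to −1.84 over the scalings). Because 7 of the 12 entered through the esophagus array alone, they had to differ in that direction. Among the 5 members bright on both arrays 4 were higher in esophagus: Sox2, Krt15, Perp and Pitx1. Pitx1, a homeobox gene known from hindlimb and mouth ectoderm, had the largest difference measured on both arrays, at −1.33 and 4.71 on the lung and esophagus arrays and at 6.29 and 2.40 on those of stomach and intestine (65.8-fold). The remaining member, Sfn, stood at 4.03 in lung and 3.12 in esophagus with probes of opposite sign. Krt4, Krt13 and Krt14, keratins of the mature or basal lining, gave no order, and Dsg3 was below background on both arrays. Of 17 simple epithelium genes compared 3 were higher in lung, Epcam (2.04-fold), Cldn3 (2.18-fold) and Cldn6 (3.15-fold), and 1 in esophagus, the protease gene Prss8 (2.06-fold). These shares, 17.6% and 5.88%, were near the 13.4% and 5.2% of all genes bright on both arrays. Of these 4 calls Cldn6 alone held under every scaling, and Krt8 stood at 3.37 in lung and 3.39 in esophagus.

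Genes of the dorsal signal and of foregut mesenchyme that were called were higher in esophagus than in lung, though not always highest there. Nog, which encodes Noggin, was not well above background in lung and stood at −0.54 in esophagus, at least 3.61-fold higher. Its level was −0.54 in stomach too, and −1.38 in intestine. Osr1, a zinc finger factor of foregut mesoderm, was 8.41-fold higher in esophagus by the smaller of its 2 probes, at 4.30 against 1.23. Foxd1, a forkhead factor, stood at −1.003 and 1.99 on the lung and esophagus arrays and at −5.08 and −5.18 on those of stomach and intestine, so that lung and esophagus lay above stomach and intestine. Osr1 and Foxd1 had 2 bright probes each and Nog had 1, and probes of 1 direction were asked of every gene kept. Barx1, the stomach mesenchyme factor, was at least 9.92-fold higher in esophagus than in lung (0.92 in esophagus) and stood at 4.50 in stomach. Twist1 and Hand2, both mesenchymal helix-loop-helix factors, were at least 12.3-fold and at least 4.56-fold higher. Hand2 stood at −0.20 in esophagus, below stomach (1.62) and intestine (1.80). Nog, Barx1, Twist1 and Hand2 passed through the esophagus array alone and had to differ in that direction. The homeobox gene Prrx1 was 7.02-fold higher with 4 probes of 1 sign, the smallest at least 1.21-fold. Of 11 dorsal and mesenchymal foregut genes compared, 8 were higher in esophagus (72.7%) and 0 in lung (median −2.19), against 7.82% and 12.2% of all genes compared. Of the 7 bright on both arrays 4 were higher in esophagus (median −1.15), against 5.2% of all genes bright on both. Foxf2 (−0.41 in log2 difference), Isl1 (0.12) and Meox2 (0.13, with probes of opposite sign) were under 2-fold. Chrd, a further BMP inhibitor, gave no order.

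Heart muscle genes had the lowest median difference of the lists, toward esophagus. Myl7, the atrial light chain, stood at 6.06 in esophagus, 2.58 in lung, 0.23 in stomach and −0.998 in intestine. Myl4, a fetal and atrial light chain, was at 3.97 in esophagus and −0.01 in lung, 15.7-fold higher in esophagus by the smaller of its 2 probes. Heart genes such as these were measurable in lung and well above it in esophagus. Actc1, cardiac actin, was 20.0-fold higher in esophagus and Tnnt2, cardiac troponin T, 8.63-fold. Myh6 and Myh7, the heart myosin heavy chains, were at least 19.4-fold and at least 15.7-fold higher by every probe, and Mybpc3, myosin-binding protein C, at least 49.5-fold. Nppa, the atrial peptide, and Nkx2-5, a heart factor also used in the pylorus, were at least 11.6-fold and at least 4.93-fold higher. Of 14 heart muscle genes compared, 13 were higher in esophagus and 0 in lung (median −3.51, from −3.79 to −2.76 over the scalings). Of these 14, 6 were bright on both arrays, and all 6 were higher in esophagus (median −3.41). Among all genes bright on both arrays 5.2% were. The other heart genes compared passed through the esophagus array alone and had to differ in that direction. Under each of the 6 scalings 12 of the 13 calls held.

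Skeletal muscle genes showed the same direction, with 7 of 11 higher in esophagus and 0 in lung. Myog, a myogenic regulator, was at least 6.39-fold higher, Myh8, the perinatal myosin, 9.94-fold, and the fast light chain Myl1 at least 31.0-fold. Only 3 of the 11 were bright on both arrays, Myh8, Tnnt1 and Mylpf, and all 3 were higher in esophagus. The others passed through the esophagus array alone and had to differ in that direction. Among all genes bright on both arrays 5.2% were higher in esophagus. Of the myogenic regulators, Myod1 was at −2.31 in esophagus, near the lung array's floor, and Myf5 and Myf6 were below background on both arrays. Sarcomere genes shared by heart and skeletal muscle stand in 1 list or the other, so the lists do not separate those tissues. Heart lies against the ventral foregut and striated muscle of the esophagus is a later addition in mice, but which tissue these RNAs came from was not tested.

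Smooth muscle genes stood apart by less. All 12 compared were bright on both arrays, and 6 were higher in esophagus and 0 in lung (median −1.02, from −1.43 to −0.24 over the scalings). Among all genes bright on both arrays 5.2% were higher in esophagus. Actg2, enteric smooth muscle actin, stood at 2.47 in lung and 4.59 in esophagus (4.34-fold), above stomach (3.63) and intestine (3.68). Acta2 (2.64-fold), Cnn1 (2.84-fold), Myh11 (2.53-fold), Lmod1 (3.10-fold) and Tagln (2.21-fold) lay closer to the 2-fold line. Of these calls Actg2 alone remained under every scaling.

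Since the muscle genes kept were all higher in esophagus, a CArG box, the motif bound by serum response factor in many muscle promoters and searched for here by that name, was looked for in the 250 bases before the start of each gene on either strand. It was present in 378 of 27025 promoters (1.40%), in 3 of the 13 heart genes higher in esophagus (23.1%), in 1 of 7 skeletal muscle genes (14.3%) and in 0 of 3 smooth muscle genes with a promoter listed. The motif TATAAA, on either strand, was in 3504 of all promoters, 7.69% of the heart genes and 57.1% of the skeletal muscle genes. The last 150 bases before the start are given for the heart genes with a CArG box, because these genes were 20.0-fold (Actc1), at least 9.98-fold (Myl3) and 11.2-fold (Myl7) higher in esophagus. Myl3 gave no order by its other probe, and its call did not hold under every scaling. They are RefSeq sequences of GRCm38.p6, written 5′ to 3′ in the direction of the gene, with the CArG box in capitals. Actc1 lies at chr2:114052876-114053025 on the minus strand, Myl3 at chr9:110763528-110763677 on the plus strand and Myl7 at chr11:5898783-5898932 on the minus strand. A match describes these letters and is not evidence of binding.
Actc1: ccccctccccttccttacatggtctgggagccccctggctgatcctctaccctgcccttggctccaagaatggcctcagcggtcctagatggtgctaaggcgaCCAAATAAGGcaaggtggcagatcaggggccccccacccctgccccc
Myl3: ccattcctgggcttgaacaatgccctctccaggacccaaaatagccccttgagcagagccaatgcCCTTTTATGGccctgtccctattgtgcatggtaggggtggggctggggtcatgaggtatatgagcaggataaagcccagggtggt
Myl7: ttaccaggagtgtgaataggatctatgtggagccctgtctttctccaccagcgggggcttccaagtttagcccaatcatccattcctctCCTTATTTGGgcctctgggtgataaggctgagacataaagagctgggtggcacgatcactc

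Among genes of the enteric nervous system, those called were bright on the esophagus array alone. Gfra1, a receptor for GDNF family ligands, was at least 10.04-fold higher and the homeobox gene Tlx2 at least 4.07-fold. Of 10 genes of that list compared, 4 were higher in esophagus (median −1.37), Hand2 among them, and all 4 were not well above background in lung and had to differ in that direction. The 6 members of that list bright on both arrays held 0 calls (median −0.61), and Ret and Phox2a gave no order. Neurofilament genes were measured on both arrays: Nefl stood at −0.77 in lung and 2.43 in esophagus (9.16-fold), with 2.23 in stomach and 2.02 in intestine, and Nefm was 3.06-fold higher in esophagus. Lung was thus the low array for the neurofilament light chain rather than esophagus the high array. Of 9 neuron genes compared 4 were higher in esophagus (44.4%) and 0 in lung, against 7.82% and 12.2% of all genes compared. Among the 6 bright on both arrays 3 were higher in esophagus. Of the 4 calls Nefl alone held under every scaling. Dcx was 3.91-fold higher in lung by its brightest probe with probes of opposite sign, and Isl1, Elavl3, Elavl4 and Stmn2 were under 2-fold.

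Of 16 hedgehog pathway genes compared, 5 were higher in esophagus and 1 in lung (median −0.55, from −0.91 to 0.24 over the scalings). These shares were 31.2% and 6.25%, against 7.82% and 12.2% of all genes compared. Ptch1, Hhat and Cdon passed through the esophagus array alone and had to differ in that direction. Among the 13 genes bright on both arrays 2 were higher in esophagus and 1 in lung. Over all genes bright on both arrays 5.2% and 13.4% were. Ptch1, receptor and target of the pathway, was not well above background in lung and at 0.91 in esophagus, at least 9.85-fold higher. The acyltransferase gene Hhat was at least 8.13-fold and the coreceptor gene Cdon at least 3.27-fold higher in esophagus. The ligand Shh (−0.53 in lung, −0.85 in esophagus) and the targets Gli1 (−1.83 and −1.33) and Hhip (0.39 and 0.77) were under 2-fold. The call on the lung side was Gli3, the main repressor of the pathway, at 2.02-fold.

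Of 33 Wnt pathway genes compared, 7 were higher in lung and 7 in esophagus, with a median difference of −0.19 whose sign changed with the scaling (−0.63 to 0.67). Each side made up 21.2%, against 12.2% in lung and 7.82% in esophagus over all genes compared. Wif1, Dkk3, Wnt4 and Wnt6 passed through the esophagus array alone and had to differ in that direction. Among the 21 genes bright on both arrays 7 were higher in lung and 3 in esophagus. Over all genes bright on both arrays 13.4% and 5.2% were. The lung side held the ligands Wnt2 and Wnt7b, the amplifier Rspo2, the coreceptor gene Lrp5 (2.61-fold), the nuclear factor Lef1 (1.57 in lung and 0.19 in esophagus, 2.60-fold), Fzd1 and the feedback inhibitor Nkd1 (2.57-fold). On the esophagus side stood secreted inhibitors, Sfrp1 (3.13 in lung, 4.63 in esophagus, 2.83-fold) and Wif1 and Dkk3 (at least 2.05-fold and at least 2.65-fold), with Wnt4, Wnt6, Lgr5 and Lrp6. Of these calls 5 on the lung side and 0 on the esophagus side held under all 6 scalings. The general target Axin2 was at −1.81 in lung and −1.47 in esophagus.

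BMP and TGF-beta genes gave 3 calls in lung (9.68%) and 7 in esophagus (22.6%) of 31 compared. Over all genes compared these shares were 12.2% and 7.82%. Among the 25 bright on both arrays there were 3 calls in each direction (median of these 25 genes 0.42). Over all genes bright on both arrays 13.4% were higher in lung and 5.2% in esophagus. Bambi, a decoy receptor induced by BMP, stood at 3.77 in lung and 1.75 in esophagus (4.07-fold), and the receptor gene Bmpr1b (3.31-fold) and Bmper, a secreted BMP modulator (2.07-fold), were also higher in lung. Higher in esophagus were the ligand binders Nog, Fst (at least 3.77-fold) and Grem1 (at least 2.65-fold), the activin subunits Inhba (3.27-fold) and Inhbb, the latent binding protein gene Ltbp1 (3.74-fold) and the receptor gene Bmpr2 (3.14-fold). Nog, Fst, Grem1 and Inhbb were not well above background in lung and could differ only toward esophagus. Sostdc1, a further secreted antagonist outside the list, was at least 23.2-fold higher in esophagus. The ligands Bmp4 and Bmp7 (1.30 in lung, 1.40 in esophagus) and the targets Id1 (2.27 and 2.35) and Id3 (3.36 and 3.84) were under 2-fold.

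Retinoic acid genes were alike except for 3 higher in esophagus of 16 compared, the degrading enzyme Cyp26a1 (at least 4.66-fold), the binding protein Crabp1 (5.03-fold) and the receptor Rxrg (at least 5.12-fold). Cyp26a1 and Rxrg passed through the esophagus array alone and had to differ in that direction. Among the 14 genes bright on both arrays 1 was higher in esophagus and 0 in lung (median 0.03). Over all genes bright on both arrays 5.2% were higher in esophagus and 13.4% in lung. The synthesizing enzyme Aldh1a2 stood at 4.07 in lung and 3.62 in esophagus. None of 15 Notch pathway genes was 2-fold apart. Hes1, the general Notch target, was at −1.32 in lung and −1.25 in esophagus.

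Matrix genes held 4 calls in lung (12.5%) and 8 in esophagus (25%) of 32 compared. Over all genes compared these shares were 12.2% and 7.82%, so the lung share was that of genes in general. Dcn, the small proteoglycan decorin, stood at 1.63 and 5.19 on the lung and esophagus arrays and at 3.77 and 3.86 on those of stomach and intestine (11.8-fold between lung and esophagus). Fn1, fibronectin, was 4.79-fold higher in esophagus and at least 2.86-fold by the smallest of its 3 probes, Lum, lumican, was 3.80-fold higher, and Tnc, tenascin C, at least 11.7-fold and by its other probe at least 2.02-fold. Lung was the lowest of the 4 arrays for decorin, lumican and fibronectin. The lung side included Col14a1 (5.21-fold), the laminin chain Lamc1 (2.23-fold) and Eln, elastin (2.47-fold). Of the axon guidance genes, 9 of 30 were higher in esophagus (30%) and 1 in lung (3.33%), against 7.82% and 12.2% of all genes compared. Among the 24 bright on both arrays 6 were higher in esophagus and 1 in lung. The median was −0.59, from −0.90 to 0.18 over the scalings, and 0 of the axon guidance calls held under every scaling.

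Blood and liver genes marked the lung array besides its own lineages. Hba-a1, adult alpha globin, stood at 9.25 and 7.03 on the lung and esophagus arrays and at 7.19 and 6.89 on those of stomach and intestine, 4.66-fold above esophagus. The embryonic globin genes Hbb-y (3.98-fold) and Hbb-bh1 (4.50-fold, 3.48-fold by its other probe) were likewise highest in lung. Of 9 red cell genes compared, all bright on both arrays, 6 were 2-fold higher in lung (66.7%) and 0 in esophagus (median 1.25). Among all genes bright on both arrays 13.4% were higher in lung. Alb, albumin, was at 1.98 in lung, −0.36 in esophagus and 2.98 in intestine (5.07-fold between lung and esophagus). Of 7 liver genes compared 5 were higher in lung (71.4%, median 1.54), against 12.2% of all genes compared. The 5 liver genes higher in lung, Alb, Afp, Ahsg, Apoa2 and Fgb, were all highest in intestine and next in lung. Of the list Apoh, Fga, Hnf4a and Ttr were below background on both the lung and esophagus arrays. Levels of the 11 red cell genes measured ran from −3.40 to 9.25 in lung and from −3.93 to 7.03 in esophagus. The part of blood and liver RNA in the other differences was not tested.

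Other cell types differed less. Of 14 endothelial genes 2 were higher in lung, Cldn5 (3.53-fold) and Esam (3.20-fold), and 1 in esophagus, Pecam1 (at least 4.09-fold), while Kdr, Flt1 and Tek were under 2-fold. These shares, 14.3% and 7.14%, were near the 12.2% and 7.82% of all genes compared. None of 12 macrophage genes was kept, and Csf1r and Lyve1 were above 2-fold in lung with probes of opposite sign. Mesothelial genes were divided, Upk3b and Upk1b higher in lung (2.16-fold and 2.31-fold) and Efemp1 and Tbx18 in esophagus (4.38-fold and 2.04-fold). Of 8 cartilage and sclerotome genes compared 0 were kept, and Col2a1 stood at 1.91 in lung and 2.29 in esophagus. Gata5, listed with the stomach and intestine genes, was 5.84-fold higher in lung, at −0.43 against −2.98.

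Cell cycle and ribosomal protein genes lay among the brighter genes. Of the genes bright on both arrays with the highest 25% of mean level, 13.4% were higher in lung and the median difference was 0.48. Of 30 cell cycle genes 11 were 2-fold higher in lung and 2 in esophagus (median 0.78), led by Cdk1 (3.79 in lung, 1.79 in esophagus, 4.01-fold) and Pcna (6.10 and 4.23, 3.64-fold). The cell cycle calls in esophagus were the inhibitors Cdkn1b (3.84-fold) and Cdkn1a (at least 2.22-fold), of which Cdkn1a could differ only toward esophagus. The cell cycle shares were 36.7% in lung and 6.67% in esophagus, against 12.2% and 7.82% of all genes compared. Cytosolic ribosomal protein genes held 16 calls in lung (19.8%) and 1 in esophagus of 81 (median 0.64), none above 2.52-fold, and 0 of these held under every scaling. Respiratory chain genes had a median of 0.21, with 4 calls in lung (5.13%) and 2 in esophagus (2.56%) of 78 compared. These shares lay below the 12.2% and 7.82% of all genes compared. The esophagus calls were the muscle forms Cox6a2 (at least 11.2-fold) and Cox7a1 (4.27-fold). Cox6a2 passed through the esophagus array alone and had to differ in that direction.

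**Figure D3:**
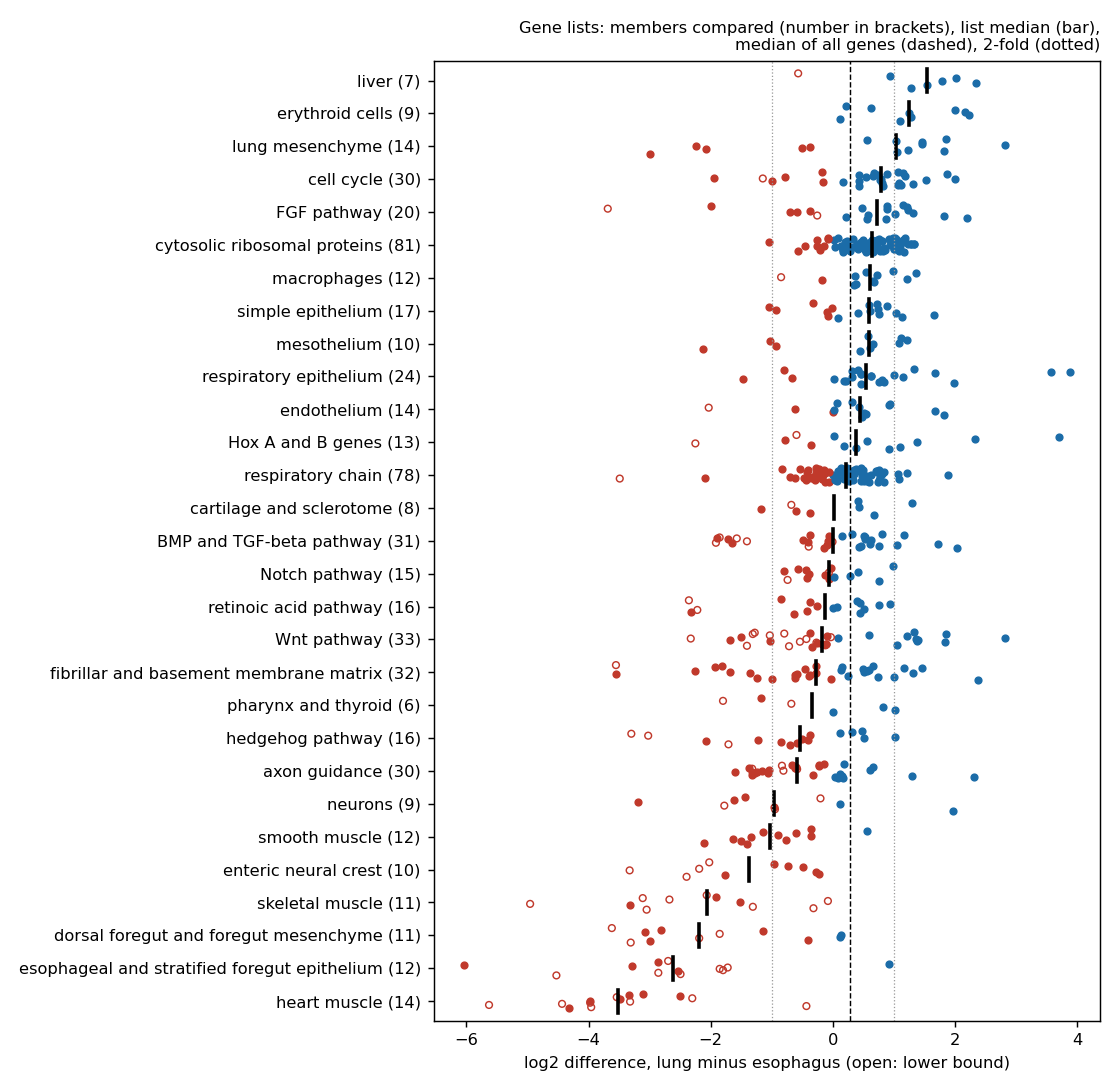
Log2 difference of lung minus esophagus (x axis) for the members of each gene list that could be compared (y axis, number in brackets), blue above 0 and red below it, open where the value is a lower bound; black bars are list medians, the dashed line is the median of all genes (0.29) and dotted lines mark 2-fold. The liver and red cell lists have medians of 1.54 and 1.25, and the heart muscle and stratified foregut lists medians of −3.51 and −2.62.

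The plot of gene lists has the liver and red cell lists at its lung end and the heart muscle and stratified foregut lists at its esophagus end, with respiratory epithelium (0.54) below the FGF pathway (0.72) and the cell cycle (0.78). It also shows how many members of the esophagus lists are known only as bounds, drawn as open points.

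Outside the lists of tissues and pathways, the largest differences measured on both arrays and higher in lung were Smndc1, a splicing factor (33.6-fold, and 4.03-fold by its other probe), Clec4n, a C-type lectin (20.4-fold), Phf24 (19.5-fold by 1 probe, with no order by its other probe and no call under every scaling) and the chemoreceptor genes Olfr187 (17.2-fold) and Vmn1r201 (15.0-fold). Itgb3, the integrin beta 3 chain, stood at 4.06 in lung and 0.22 in esophagus (14.35-fold). Slc7a4 and Nudt16l2 were 14.3-fold and 13.2-fold higher. Mia, a secreted protein of cartilage, was 8.27-fold higher in lung and 4.94-fold by the smallest of its 3 probes, with 2.64 and −0.41 on the lung and esophagus arrays and at −3.44 and −2.32 on those of stomach and intestine. Fam20a, a secretory pathway pseudokinase, was 6.06-fold higher by the smaller of its 2 probes. For Mia and Fam20a every bright probe was past 4-fold. Arl6, Fignl1, Vbp1, Pnp, Tfam and Dscc1 were 3.40-fold to 4.95-fold higher in lung by their smaller probe. Among genes bright in lung alone, Olfr815 had a bound of at least 72.2-fold and Snai3, a zinc finger factor, of at least 35.1-fold, followed by Sycp2, Olfr564, Kprp and Maats1, each with 1 bright probe.

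On the esophagus side, Rn28s1, the 28S ribosomal RNA, stood at 2.79 and 8.42 on the lung and esophagus arrays and at 8.06 and 6.51 on those of stomach and intestine (49.7-fold). Lars2, a mitochondrial leucyl-tRNA synthetase, showed the same order of arrays at 4.90, 10.20, 10.08 and 8.53 (39.5-fold). Rmrp, the RNA of RNase MRP, was 17.1-fold higher in esophagus. For these RNAs lung was far below all 3 other arrays. Col8a1, a short-chain collagen, was 27.2-fold higher by its brightest probe and at least 2.87-fold by the other, and Crmp1, a neuronal phosphoprotein (20.7-fold), Fthl17e (23.7-fold) and the muscle gene Apobec2 (14.7-fold) followed. Fam110a had the largest bound, at least 176.6-fold, at 5.08 in esophagus, and Anxa8 and Cyp17a1, a steroid enzyme, were at least 23.0-fold and at least 22.3-fold higher. By 2 or more probes, H2bc12, a histone gene, was 8.28-fold, Klhl9 at least 9.51-fold, Zfp146 6.15-fold, and the troponins Tnni3 and Tnni1 10.1-fold and 5.68-fold higher.

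Probes of the same gene gave the best measure of error that the arrays allow. For 2508 genes with 2 probes bright on both arrays, the probes' log2 differences had an SD of 1.19 between them, which is 0.84 for 1 probe, and their correlation across these genes was 0.17. Genes are not independent replicates, and the value describes this pair of arrays. Where the brightest probe was 2-fold higher in lung, the next probe had the same sign in 296 of 481 genes (61.5%) and was itself 2-fold in 127 (26.4%). Over all 2508 genes the next probe had the lung sign in 54.7% and was 2-fold higher in lung in 14.6%. For esophagus the same sign was seen in 100 of 177 (56.5%) and 2-fold in 49 (27.7%), against 45.3% and 15.4% over all 2508. A 2-fold difference by 1 probe was therefore of about the size of the difference between probes. Of the 2107 genes kept, 986 of those higher in lung and 547 of those higher in esophagus rested on 1 bright probe. Asking that every one of 2 or more bright probes be 2-fold apart left 97 genes in lung (3.14% of 3094) and 80 in esophagus (2.59%).

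**Figure D4:**
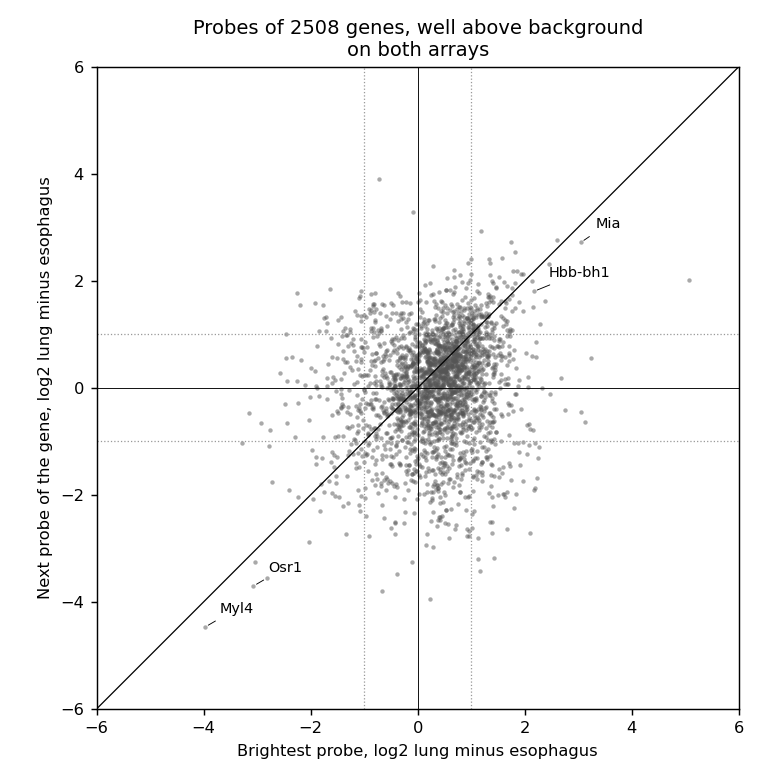
Log2 difference of lung minus esophagus by the brightest probe (x axis) and by the next probe (y axis) of 2508 genes with 2 probes well above background on both arrays; the diagonal is equality and dotted lines mark 2-fold. The correlation is 0.17; Mia and Hbb-bh1 lie near the diagonal on the lung side, and Osr1 and Myl4 on the esophagus side.

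The plot of probe against probe shows a cloud with little slope and a few genes along the diagonal at its ends. At 4-fold, 139 genes were higher in lung (1.32%) and 213 in esophagus (2.03%), so that esophagus held more of the large differences and lung more of those between 2-fold and 4-fold. Calls in esophagus were more frequent at low levels: by mean level of both arrays they made up 7.22% of the lowest 25% of genes bright on both and 2.73% of the highest 25%, while calls in lung made up 16.2% and 13.4%. Among the genes kept, 327 of the 822 in esophagus were known only as bounds, against 9 of the 1285 in lung. Just inside the 2-fold line lay Plk3, Med7 and Rpl23a (2.001-fold) in lung and Ndfip1, Sfmbt1 and Rimklb (at least 2.003-fold) in esophagus. Just outside lay Dnajc17 (1.998-fold), Akr1c19 and Trmt112 in lung and Hydin, Gid8 and Grin2d (at least 1.999-fold) in esophagus.

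How the arrays were scaled set the balance of the calls. The split of 1285 to 822 (61.0% of calls in lung) became 3730 to 367 when arrays were centred on their median (91.0%) and 4660 to 278 when centred on the spike-in controls (94.4%). It became 653 to 1328 with the percentile taken over probes bright on both arrays (33.0%), 1133 to 1153 under quantile normalization (49.6%) and 635 to 2427 under loess (20.7%). These scalings moved the median difference of all genes, which was 0.29, by 0.63, 0.83, −0.32, −0.21 and −0.46 in that order. No gene kept here was called in the other direction under any of them. That would take a move from 2-fold on 1 side to 2-fold on the other, more than these scalings moved the median. It therefore says little about the direction of a gene. Under all 6 scalings together, 543 of the 1285 lung calls and 278 of the 822 esophagus calls held, which are 5.16% and 2.64% of all 10516 genes compared. Nkx2-1, Sftpc, Wnt2, Rspo2, Fgf10, Hoxb5 and Hoxb6 were among the first, and Sox2, Krt5, Nog, Osr1, Foxd1 and 12 heart muscle genes among the second. Trp63 had a difference between −4.51 and −1.92 over the scalings, but its probes did not agree in sign under each of them.

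**Figure D5:**
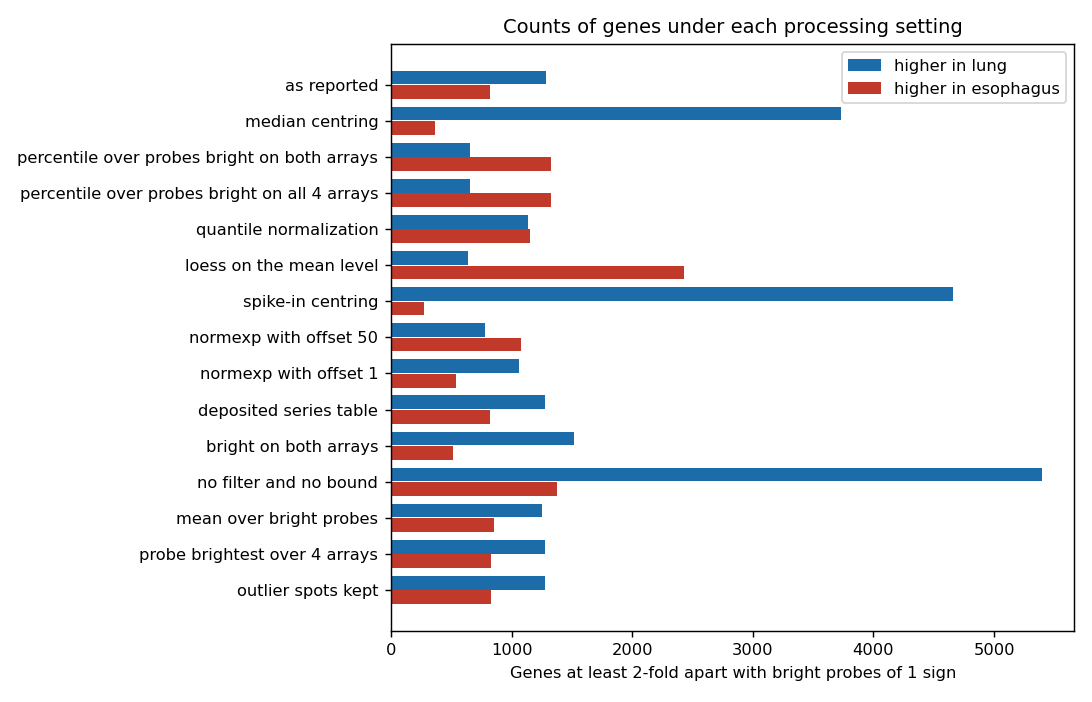
Number of genes at least 2-fold apart with bright probes of 1 sign (x axis) under each processing setting (y axis), higher in lung in blue and higher in esophagus in red. The split runs from 4660 to 278 under spike-in centring to 635 to 2427 under loess, against 1285 to 822 as reported.

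In the plot of settings the lung bar is longest with no filter and no bound (5397) and under spike-in centring (4660), and the esophagus bar under loess (2427). The choice of a gene's probe and the treatment of outlier spots moved the bars little. Statements about single genes or lists above are therefore firmer where the difference is well past the shifts of the median than where it lies near the 2-fold line.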

How the data were processed

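Total RNA of 4 ICR mouse organ primordia was hybridised to 1-colour Agilent arrays, 1 array per organ, and the lung and esophagus arrays were compared. Per the file headers, the deposited spot intensity values come from Feature Extraction 10.5.1.1 (Agilent; protocol GE1_105_Dec08; design 014868, build mm8), and the processed signal is background-subtracted and not scaled between arrays. Levels were log2 processed signals from which each array's own 75th percentile, taken across 41174 probes other than controls, was subtracted. Spots flagged as outliers were left out and copies of a probe averaged. The log2 values that the authors deposited as a series table matched this and served as an alternative; its scale and centring are known from that match only.

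Of the probes 24367 (59.2%) were given 1 gene symbol through accessions in the RefSeq gene table of GRCm38.p6, and 16807 had none. Each gene was represented by the probe brightest over both arrays. Where the lower array was not well above background, its value was the higher of its own and that array's lowest bright level; a pair whose bound lay under 1 had no order. Genes were named by rule: the 12 largest differences measured on both arrays, the 10 largest by every probe and the 6 largest bounds in each direction, members of 32 gene lists, 8 genes throughout and examples beside the 2-fold line. Clone names were left out, and some genes that fall under these rules are not reported here. The members, lists and rules were chosen with earlier results of these data known, and the count of calls held under every scaling was added after these results were seen. The histone and sex-linked genes of the closing section were chosen after their values were seen. The number of arrays limits precision.

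Alternatives changed the scaling, background correction, filter, probe choice, agreement and threshold. No gMeanSignal column was used: normexp ran on the median signal and median background. The calculations used Python 3.11.15, numpy 2.4.6, pandas 2.3.3, matplotlib 3.10.9, R 4.3.3 and limma 3.58.1, and the counting was tested on simulated data. Promoters are RefSeq sequences of GRCm38.p6, from the first start listed for a gene.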

Additional observations from a re-analysis of the deposited data

How the results depend on the processing

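With 1 array an organ there is no spread between samples, and depth is replaced by signal over background: genes under the lung array's floor gave bounds or no order. No paired analysis was possible because each organ has 1 array and no replicate number. In lung 1285 genes became 3730 under median centring, 653 with the percentile over probes bright on both arrays or on all 4, 635 under loess, 4660 under spike-in centring, 778 under normexp with offset 50, 5397 with no filter and no bound, 97 with every one of 2 or more probes 2-fold and 139 at 4-fold. In esophagus 822 became 367, 1328, 1328, 2427 and 278 under the same scalings, 536 under normexp with offset 1, 511 among genes bright on both arrays, 1375 with no filter and no bound, 80 with every probe and 213 at 4-fold. Other counts stayed within 1.5 times. Over the lists, 34 medians moved by more than the SD of 1 probe (0.84) and 414 by less. For single genes reported here 33 differences turned sign, all under normexp with offset 50, an offset above the lung array's signal at the 75th percentile of 32, where the median of all genes moved by −0.50. They were Atp5pb −0.29, Birc5 −0.25, Bmper −0.0042, Bub1 −0.0522, Ccna2 −0.13, Ccnb1 −0.0107, Fzd1 −0.12, Gli3 −0.24, Hba-x −0.0848, Lamc1 −0.0172, Mcm4 −0.0831, Med7 −0.0832, Rpl10 −0.24, Rpl14 −0.13, Rpl23 −0.38, Rpl23a −0.59, Rpl31 −0.14, Rpl32 −0.19, Rpl9 −0.0812, Rplp1 −0.0557, Rplp2 −0.023, Rps10 −0.29, Rps12 −0.25, Rps15 −0.17, Rps27a −0.0926, Rps4x −0.18, Rps7 −0.34, Rps9 −0.32, Rrm2 −0.0336 and Tyms −0.21, from higher in lung, and Lgr5 0.39, Plxna1 0.14 and Prss8 0.0034, from higher in esophagus.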

Other observations

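Replication-dependent histone genes, whose RNAs lack a poly(A) tail, were lower on the lung array. The group was chosen after its values were seen. Of 27 bright genes 26 could be compared, 21 were higher in esophagus by sign and 5 in lung, and 17 were at least 2-fold higher in esophagus against 0 in lung. Over all genes compared 7.82% were higher in esophagus and 12.2% in lung. Any histone gene bright on the esophagus array alone had to differ in that direction. The median difference of the histone genes was −1.38, against 0.29 over all genes compared, and it lay between −1.94 and −0.60 over the scalings. H2bc14 stood at 3.64 and 6.82 on the lung and esophagus arrays and at 6.31 and 5.43 on those of stomach and intestine, and H3c1 at 0.37, 3.61, 2.19 and 1.68 in the same order. The single RNAs Rmrp and Rn28s1, which also carry no such tail, were 17.1-fold and 49.7-fold higher in esophagus. Which step or tissue sets this difference was not tested.

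Genes of the Y chromosome were seen on both arrays. Ddx3y stood at 1.42 in lung and −0.68 in esophagus, Kdm5d at −0.18 and −2.37, and Eif2s3y at −1.03 and −1.82. Xist, expressed from the inactive X chromosome, was at −0.97 in lung and 0.42 in esophagus. Uty, a further Y gene, was not well above background in lung by either probe, and stood at −4.84 and −4.22 in esophagus. Ddx3y and Kdm5d were thus more than 2-fold higher in lung and Xist in esophagus, while Eif2s3y was under 2-fold and Uty gave no order.

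Of 1023 chemoreceptor genes 19 could be compared, and 8 were 2-fold higher in lung against 2 in esophagus. All 8 genes higher in lung had 1 bright probe, with lung levels between −1.64 and 1.41, and all 8 held under every scaling.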
